A study of Mus musculus with 2 samples.

Results

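The fibroblast growth factors (FGFs) Fgf1, Fgf2, Fgf7, Fgf9, Fgf10 and Fgf18 and the receptors Fgfr1, Fgfr2, Fgfr3 and Fgfr4 were described in kidney RNA of diabetic mice. Their probes were found by the RefSeq accession that the array tables give for each probe. These 10 genes, of 20017 that could be named on the array, were read by 17 of its 39426 probes. The study set male mice labelled as Sirt1-overexpressing transgenic (TG+STZ) against male wild-type mice (WT+STZ), all on a C57BL/6J background. Both groups were made diabetic when 8 weeks old with streptozotocin (STZ), a beta cell toxin dissolved in citrate buffer (100 mmol/l), and both were killed at 32 weeks. RNA came from dissected glomerular regions, the glomerulus being the filter at the head of the nephron. The sources used here name neither the promoter that drives the transgene nor the number of mice behind each array. The set was chosen by gene family with the signals and differences on these same 2 arrays known, so its values are a description.

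Each group had 1 single-colour Agilent array, so no difference below has a replicate check, and no p-value or interval between groups was computed. Both arrays were read on 1 slide in 1 scan. Of 43020 gene spots on each array, 76.3% in TG+STZ and 75.04% in WT+STZ lay well above background, and 0 were saturated. Sirt1 itself read 2977 intensity units in TG+STZ and 2625 in WT+STZ, a scaled difference of 0.10 ± 0.20 on the log2 scale. Its value does not check the labels, since the sources used here do not say if that probe covers the transgene. Signals below are processed intensities in scanner units. Differences are log2 values of TG+STZ minus those of WT+STZ after each array was divided by its own 75th percentile of gene spots, and the value after ± is the scanner software's error of the 2 spots compared, which does not cover the spread between mice.

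FGFs are secreted proteins that bind tyrosine kinase receptors together with heparan sulphate chains of the cell surface, and the activated receptors signal through adaptors and the RAS and ERK kinases. In the developing kidney, Fgf7 and Fgf10 are made by stromal and mesenchymal cells and act on the epithelial splice form of Fgfr2 in the ureteric epithelium, whereas Fgf9 helps to keep nephron progenitors alive. In the adult kidney, Fgfr1, Fgfr3 and Fgfr4 also take part in the response of the tubule to the phosphate hormone Fgf23, which needs klotho as a co-receptor.

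Fgf10 stood apart from the other members. It was 4.12-fold lower in TG+STZ, at -2.04 ± 0.22, and the 8 other members that could be measured lay between -0.18 and 0.25. Fgf2 was not well above background on either array. Of the 9 measured members, 1 was at least 2-fold apart, against 0.989% of the 15975 genes measured on both arrays (0.469% lower in TG+STZ), and the same 1 was at least 1.5-fold apart, against 3.66% of all genes. By direction, 4 members were higher and 5 were lower, with a median of -0.04, and over all measured genes 50.9% were higher with a median of 0.00.

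Fgf10 was read by 1 probe, A_52_P42269, annotated to NM_008002 and spotted 10 times on each array. In TG+STZ its spots ran from 37.4 to 44.4 intensity units with a median of 39.7, and in WT+STZ from 143 to 167 units with a median of 159. All 10 spots of each array were well above background. The 2 sets of spots did not overlap, but repeated spots scatter little, with a median SD of 0.03 over all 319 measured repeated probes. How many of those probes also had sets without overlap was not counted. The mean signal was 40.3 ± 2.63 units in TG+STZ and 157 ± 7.48 units in WT+STZ (SD over 10 spots of 1 array, which is a technical spread). Spot by spot, the difference lay between -2.19 and -1.94, lower in TG+STZ at all 10 positions, and its SD over spots was 0.09. The positions were spread from row 54 to row 526 of the array grid, and an effect of position on the slide was not tested. The negative control spots reached at most 7.998 units in TG+STZ and 6.98 in WT+STZ, below every Fgf10 spot.

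Against the whole array, the Fgf10 difference was the 9th lowest of 15975 genes. It was dimmer than the median gene, and among such dimmer genes 1.53% were at least 2-fold apart, 0.751% of them lower in TG+STZ. Of 319 measured probes that were spotted several times, 4 were at least 2-fold apart, which is 1.25%, and Fgf10 ranked 2nd of these by size. Under normexp background correction with an added offset, which pulls dim probes toward 0, the Fgf10 difference was -1.24, still lower in TG+STZ and still past 2-fold.

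**Figure D1:**
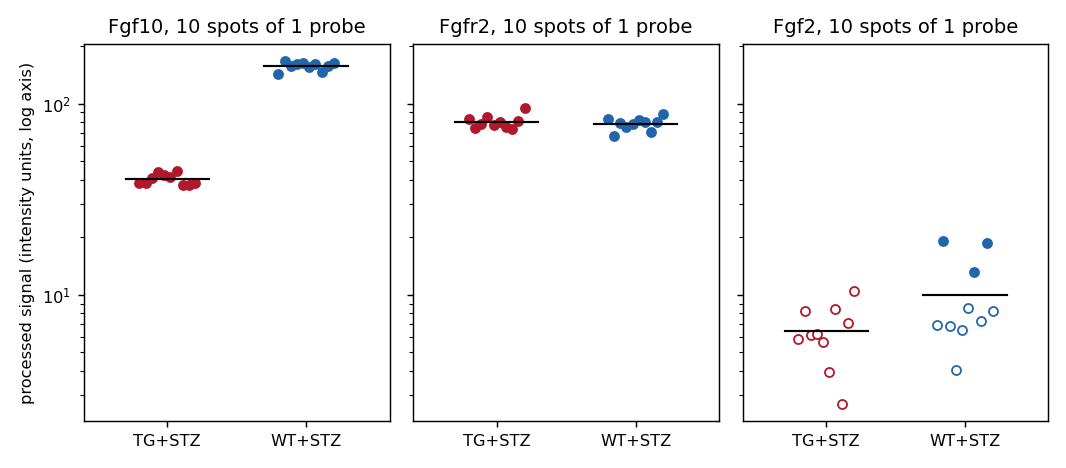
Processed signal (intensity units, log axis) of each spot of the 3 member probes that were spotted 10 times, for Fgf10, Fgfr2 and Fgf2, with TG+STZ left of WT+STZ. Filled points are spots well above background, open points are not, and lines are means. The Fgf10 spots lie at 37.4 to 44.4 units in TG+STZ and at 143 to 167 in WT+STZ, whereas the Fgfr2 spots of the 2 arrays overlap.

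Fgf7, the closest relative of Fgf10 and a ligand of the same epithelial receptor form, read 54.9 units in TG+STZ and 53.9 in WT+STZ. Its difference was -0.05 ± 0.22, within the scanner error, from 1 probe at 1 spot. Fgf7 and Fgf10 thus had unlike differences on the same pair of arrays. Their shared receptor Fgfr2 had a probe spotted 10 times, with 73.9 to 94.4 units in TG+STZ (median 79.5) and 67.7 to 87.7 units in WT+STZ (median 79.4). These ranges overlap from 73.9 to 87.7 units. The probe stood at -0.04 ± 0.21, with 7 spots lower and 3 higher, and a further Fgfr2 probe read 349 units in TG+STZ and 319 in WT+STZ, at 0.05. Averaged over both probes, Fgfr2 stood at 0.00 ± 0.15. Whether these probes read the epithelial or the mesenchymal splice form was not tested.

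Fgf2, a ligand stored in basement membranes and extracellular matrix, was near the detection limit. Its probe was also spotted 10 times and read 2.69 to 10.5 units in TG+STZ (median 6.22) and 4.04 to 19.1 units in WT+STZ (median 7.72). In TG+STZ 0 of the 10 spots were well above background, and in WT+STZ 3 of 10 were. The 2 sets overlap, and no fold is given for this gene. Its spots scattered far more than those of Fgf10, with an SD of 0.73 for the difference between arrays.

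The remaining ligands differed little between the arrays. Fgf18, a ligand known from bone and lung development, had 2 probes that both read higher in TG+STZ. One read 172 units in TG+STZ and 136 in WT+STZ, at 0.26 ± 0.21, and the other 407 units in TG+STZ and 325 in WT+STZ, at 0.25 ± 0.20. Their mean of 0.25 ± 0.15 was the highest among the members and lay slightly above the scanner error, but 7.54% of all measured genes had a difference as high or higher. With normexp correction it was 0.11, which is less than the error. Fgf9 read 3432 units in TG+STZ and 2964 in WT+STZ from 1 probe, a difference of 0.13 ± 0.20. Fgf1, which binds all FGF receptors, had a probe at 46230 units in TG+STZ and 45822 in WT+STZ and another at 462 units in TG+STZ and 475 in WT+STZ. The Fgf1 probes stood at -0.07 and -0.12, and their mean was -0.09 ± 0.14, within the error. Probes differ in how well they bind, so the 2 signals of Fgf1 do not rank its transcripts.

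All 4 receptors were detected by every one of their 9 probes, and none was 1.5-fold apart. Fgfr3, a receptor that restrains bone growth and is also found in epithelia, stood lowest at -0.18 ± 0.14. Its probes read 5189 units in TG+STZ and 5443 in WT+STZ for the one and 316 units in TG+STZ and 345 in WT+STZ for the other, at -0.15 and -0.20. Both Fgfr3 probes were lower in TG+STZ, each by no more than its own error of 0.20. Fgfr1, the most widely expressed FGF receptor, had 3 probes. They read 7604, 828 and 623 units in TG+STZ, against 7212, 802 and 623 units in WT+STZ, and stood at 0.00, -0.03 and -0.08. The gene mean was -0.04 ± 0.12. Fgfr4, known from liver and from the proximal tubule, read 9806 and 768 units in TG+STZ, against 8614 and 744 units in WT+STZ. Its probes lay on opposite sides of 0, at 0.11 and -0.03, with a mean of 0.04 ± 0.14.

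Of the 6 members with several measured probes, 4 had all their probes on 1 side of 0, and Fgfr2 and Fgfr4 did not. The 15 measured probes outside Fgf10 lay between -0.20 and 0.26.

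**Figure D2:**
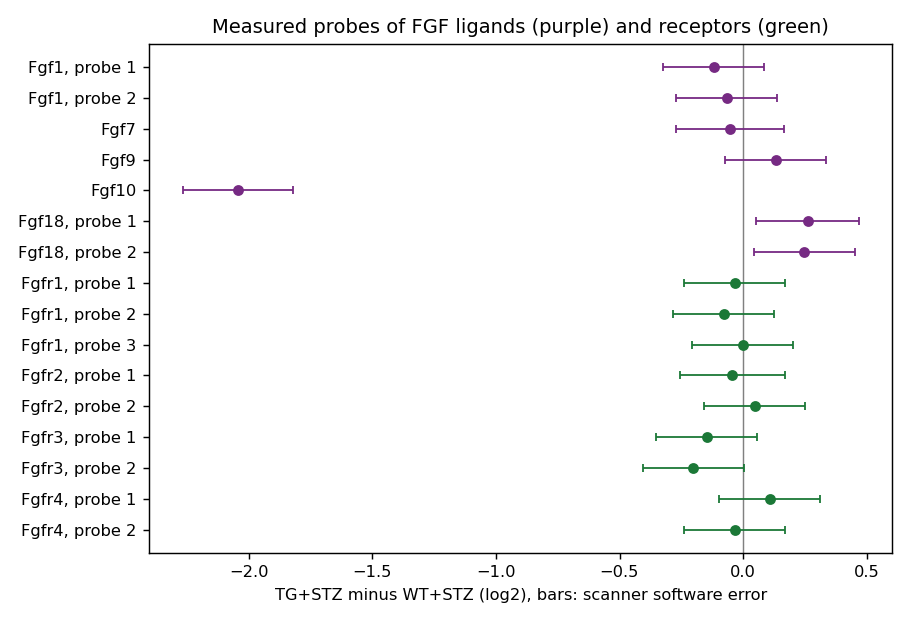
Difference of each of the 16 measured member probes, TG+STZ minus WT+STZ (log2, horizontal axis), for ligands in purple and receptors in green, with the scanner software's error as bars. Fgf10 stands at -2.04 and every other probe lies between -0.20 and 0.26. Fgf2, not well above background, is left out.

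The wider FGF pathway was read from 6 gene lists of 91 genes in all, of which 76 were measured. Of these, 38 were higher and 38 were lower in TG+STZ. At least 1.5-fold apart were 2, both higher, which is 2.63% against 3.66% of all genes, a share near the background. None of the 76 was 2-fold apart. The list medians between -0.03 and 0.04 given below changed sign under at least 1 other scaling or background correction, so they carry no direction. These lists had also been drawn up with results of these arrays known.

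Among 16 other ligands and intracellular FGF-like proteins, 5 were measured and 11 were not well above background. The median of the 5 was -0.17, with 1 higher and 4 lower. Fgf12 and Fgf11, intracellular proteins that bind sodium channels, were furthest from 0. Fgf12 read 24.2 units in TG+STZ and 30.1 in WT+STZ (-0.38 ± 0.23), and Fgf11 read 63.3 units in TG+STZ and 74.3 in WT+STZ (-0.31 ± 0.21). Both were dim and under 1.5-fold.

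All 18 co-receptors, carriers and surface proteoglycans were measured, 11 higher and 7 lower, with a median of 0.04 that became -0.049 under normexp. Gpc3, a glypican that carries heparan sulphate chains, was the one past 1.5-fold, at 1454 units in TG+STZ and 901 in WT+STZ (0.61 ± 0.20). Kl, which encodes klotho, read 42643 units in TG+STZ and 39278 in WT+STZ, at 0.04 ± 0.20. The 13 enzymes that build, trim or cut heparan sulphate had a median of 0.00, with 7 higher and 6 lower. Furthest were Hpse, which cleaves the chains, at -0.31 ± 0.23 and Ext2, which elongates them, at -0.16 ± 0.21. Hpse read 36.7 units in TG+STZ and 43.1 in WT+STZ.

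The 23 genes of signalling inside the cell had a median of 0.01, with 13 higher and 10 lower. Sos1, which loads RAS with GTP, stood at -0.38 ± 0.21 (75.5 units in TG+STZ and 92.7 in WT+STZ) and the docking protein gene Gab1 at 0.14 ± 0.20. Of 11 feedback inhibitors 8 were measured, 4 higher and 4 lower, with a median of -0.03. Dusp6, a phosphatase that switches off ERK and is switched on by it, read 10881 units in TG+STZ and 7568 in WT+STZ, at 0.45 ± 0.20, which is under 1.5-fold. Spry4 was next at 0.17 ± 0.21. The other sprouty genes Spry1 and Spry2 stood at -0.11 ± 0.20 and -0.10 ± 0.23, opposite in sign to Dusp6 and within the error.

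Genes switched on by ERK signalling were mostly lower in TG+STZ, with differences of either sign. Of 10, 9 were measured, with 2 higher and 7 lower and a median of -0.19. Under every processing setting tried, this median stayed below 0, between -0.24 and -0.12. Ccnd1, the cyclin D1 gene that drives entry into the cell cycle, was past 1.5-fold at 15081 units in TG+STZ and 9122 in WT+STZ (0.65 ± 0.20). Of the ETS factor genes, often used as readouts of FGF signalling, Etv4 stood at -0.32 ± 0.15. Etv5 at -0.05 ± 0.20 and Etv1 at 0.15 ± 0.15 did not exceed their errors. Ier3 and Phlda1, immediate targets of ERK, stood at -0.34 and -0.32, each ± 0.20.

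**Figure D3:**
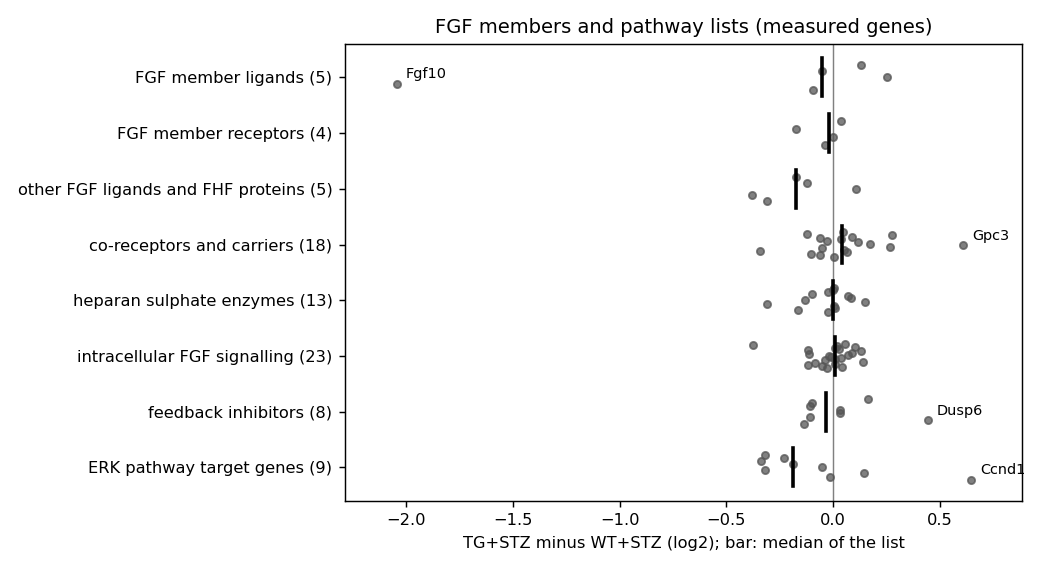
Difference of each measured gene, TG+STZ minus WT+STZ (log2), for the member ligands and receptors and the 6 pathway lists, with the number of measured genes in brackets and the list median as a black bar. List medians lie between -0.19 and 0.04. Fgf10 at -2.04 is the furthest gene on the plot, and Gpc3 and Ccnd1 lie past 1.5-fold on the other side.

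The arrays differed in markers of the cell types that the dissected tissue could hold, and in bulk RNA fewer cells of a type and less RNA per cell cannot be told apart. Fibroblast markers, of the stromal cells known as a source of Fgf7 and Fgf10, were higher in TG+STZ for 14 of 16 genes, with a median of 0.35 and a summed signal of 34252 units in TG+STZ and 25740 in WT+STZ. The lead genes were Clec3b at 1.096 ± 0.24 and Igfbp6 at 0.61 ± 0.20. Other genes of the list stood near 0, with Pdgfra at 0.03, Cd248 at -0.01 and Pi16 at -0.03. The Fgf10 difference had the opposite sign to the list median, and any link between them was not tested. Fat cell markers were higher for 6 of 6 measured genes, with a median of 2.06 and a summed signal of 29526 units in TG+STZ and 22173 in WT+STZ. Most of that sum came from 2 genes that differed little. Fabp4 read 15379 units in TG+STZ and 11503 in WT+STZ (0.34 ± 0.20), and Car3 12184 and 10506 units (0.13 ± 0.20). Cfd stood at 4.82 ± 0.22 and Cidea at 2.90 ± 0.21. Adipoq, Ucp1 and Plin1 were well above background in TG+STZ only, at least 13.9-fold, 24.5-fold and 4.17-fold higher when set against the detection limit or their own signal in WT+STZ. Urothelial markers were higher for 9 of 11 genes, with a median of 0.63 and a summed signal of 11271 units in TG+STZ and 7911 in WT+STZ, led by Krt20 at 1.19 ± 0.26 and Upk1a at 1.16 ± 0.20.

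Collecting duct markers, of the epithelium that descends from the ureteric bud, were lower for 8 of 9 genes, with a median of -0.30 and a summed signal of 87758 units in TG+STZ and 95022 in WT+STZ. Slc26a4 stood at -0.63 and Hsd11b2 at -0.44, each ± 0.20. Loop and distal tubule markers had a median of -0.15 with 7 of 8 lower (Cldn19 at -0.28 and Trpm6 at -0.20), smooth muscle and mesangial markers -0.14 with 6 of 8 lower (Acta2 at -0.35 and Thy1 at -0.33), and leukocyte markers -0.16 with 9 of 9 measured lower (Ms4a1 at -0.79 and Cd8a at -0.66). The summed unscaled signal of the loop and distal tubule list was instead higher in TG+STZ, at 344859 units against 320310 in WT+STZ. Most of it came from Umod, at 306908 units in TG+STZ and 280541 in WT+STZ (0.05 ± 0.20). Of the leukocyte genes, Ms4a1 read 59.2 units in TG+STZ and 97.2 in WT+STZ, and Cd8a 23.0 and 34.9 units, so both were dim. Cd79a, Itgam, C1qa and Cd3e stood between -0.12 and -0.03, within their errors, whereas Ptprc, S100a8 and Adgre1 exceeded theirs. Podocyte, endothelial and proximal tubule markers had medians of -0.07, -0.08 and 0.02. The podocyte markers, which define the labelled tissue, were all 12 detected. Proximal tubule markers were detected as well, with a summed signal of 1972260 units in TG+STZ and 1833960 in WT+STZ, so the members were read in RNA that also held tubule transcripts. With normexp the medians of the fibroblast, fat cell and urothelial lists were 0.14, 0.96 and 0.27, still above 0, and the proximal tubule median changed sign under other settings. The part of these cell types in the Fgf10 difference was not tested.

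**Figure D4:**
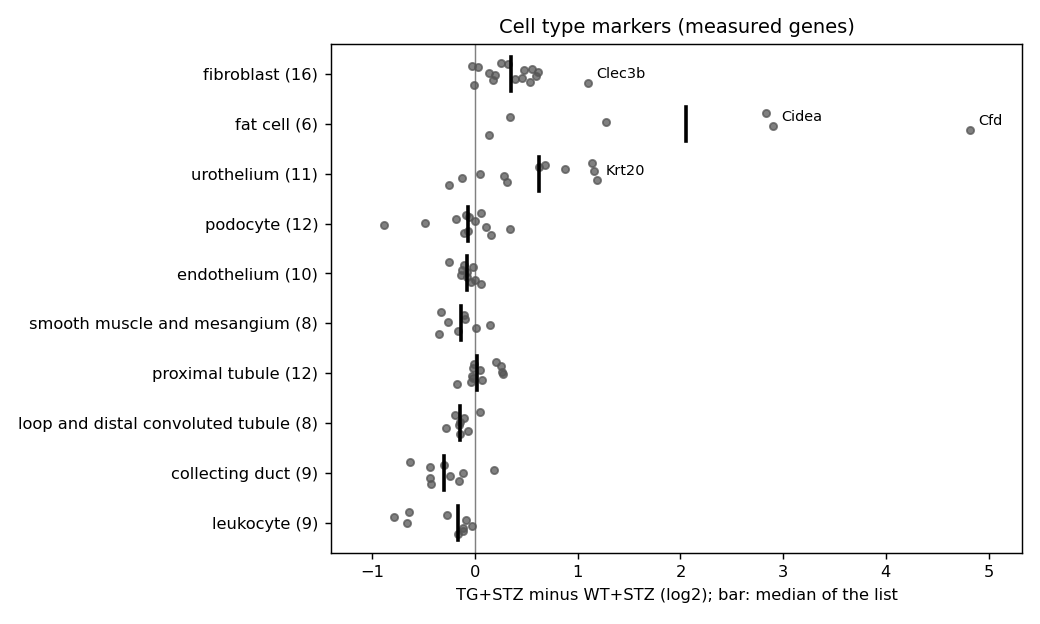
Difference of each measured cell type marker, TG+STZ minus WT+STZ (log2), with the number of measured genes in brackets and the list median as a black bar. Fibroblast, fat cell and urothelial markers lie mostly above 0 with medians of 0.35, 2.06 and 0.63, and collecting duct markers mostly below 0 with a median of -0.30.

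The members lie on 9 chromosomes, with Fgf10 and Fgfr4 both on chromosome 13. For each member, the 5 measured protein-coding genes on either side were read from the gene order of the mouse assembly GRCm38.p6. For Fgf10, 2 of the 10 neighbours were at least 1.5-fold apart, and for the other 9 members together 3 of 90 were, against 3.66% of all genes. The 2 neighbours of Fgf10 were both higher in TG+STZ, opposite in sign to Fgf10. Ccl28, a chemokine of mucosal epithelia and the 4th measured gene beyond Fgf10, read 1567 units in TG+STZ and 266 in WT+STZ, at 2.48 ± 0.20. Tmem267, the measured gene before it, stood at 0.60 ± 0.12 over 3 probes. Hmgcs1, a cholesterol synthesis enzyme and the measured gene after Ccl28, stood at 0.40 ± 0.20. The nearest measured genes were close to 0, with Mrps30 at 0.05 ± 0.20 on one side of Fgf10 and Paip1 at 0.01 ± 0.14 on the other. Genes that were not measured may lie between them and Fgf10.

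**Figure D5:**
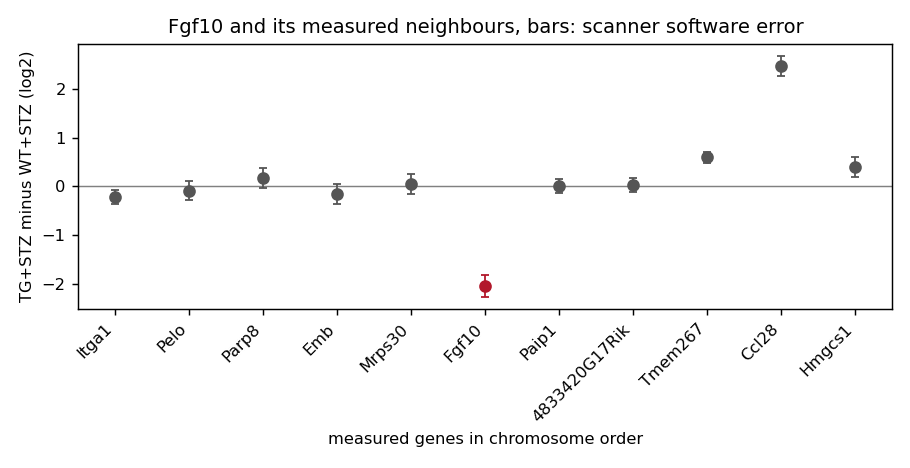
Difference of Fgf10 (red) and of the 5 measured protein-coding genes on either side of it (grey), TG+STZ minus WT+STZ (log2, vertical axis), in chromosome order and not to distance, with the scanner software's error as bars. Fgf10 stands at -2.04, the nearest measured gene on each side near 0, and Ccl28 at 2.48.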

How the data were processed

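Cy3-labelled RNA of each group was hybridised to 1 Agilent array. The deposited intensity values are spot signals from Agilent Feature Extraction 10.7.1.1, per the file headers (the submitters' processing notes name 10.3.1.1), with background subtracted within each array. The deposited value table held the same intensity at all 43020 gene spots of each array. Signals were divided by each array's 75th percentile over non-control spots and put on a log2 scale. Outlier spots (109 in TG+STZ, 114 in WT+STZ) were dropped, spots of a probe and then probes of a gene were averaged. A probe counted as measured where more than a 0.5 share of its spots were well above background on both arrays. Accessions of 26410 probes matched a RefSeq symbol (GRCm38.p6), 13016 did not. The error of a gene is that of its probes combined as independent, and for a probe with several spots the mean over spots. For a gene well above background on 1 array, the bound sets it against the higher of the lowest signal above background and its own signal on the other.

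Members and lists were chosen with earlier results of these data known. Named were all members, each list's genes past 1.5-fold or else its 2 furthest, the 2 furthest of marker lists with a median beyond 0.1, and bounds past 2-fold. Kl, the other sprouty and ETS genes, Ier3, Phlda1, the neighbours and the genes of the closing section were chosen after their values were seen. So were Umod, Fabp4, Car3, Pdgfra, Cd248, Pi16 and the leukocyte genes other than Ms4a1 and Cd8a. No test was possible with 1 array a group, and the number of arrays limits the precision. Only the averaging over spots and probes was tested on simulated data. The simulated shifts were added after scaling, so scaling, background correction and detection were not tested. Normexp was run in limma 3.58.1 under R 4.3.3, and the rest in Python 3.11.15 with pandas 2.3.3, numpy 2.4.6 and statsmodels 0.14.6.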

Additional observations from a re-analysis of the deposited data

How the results depend on the processing

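The 10 alternatives were quantile normalization, loess (span 0.3), scaling by the median, by the spike-ins or by the 75th percentile of detected probes only, normexp (offset 50), the deposited value table, a laxer detection flag, dim probes kept, and the brightest probe of each gene. The Fgf10 difference ran from -2.07 to -1.24, with normexp at -1.24 and every other alternative at -1.99 or lower. Several of these alternatives could not change it. The deposited value table equals the main signals, all Fgf10 spots were well above background, and Fgf10 has only 1 probe. Scaling by the median, the spike-ins or the detected probes shifts all genes of an array alike. Normexp also gave 36 genes 2-fold higher and 29 lower (83 and 75 in the main values), 109 and 150 at 1.5-fold (280 and 305), and a co-receptor median of -0.049, opposite in sign to 0.04. It also moved the Fgf18 probe that stood at 0.26 to 0.05, by more than its scanner error of 0.21. With dim probes kept these counts were 295, 323, 740 and 848, and with the laxer flag 202, 217, 577 and 671, because more dim genes enter. Both then counted 2 members past 1.5-fold, Fgf10 and the dim Fgf2, and 2 of the other ligands, gave the ERK targets a median of -0.12, and put 2 and 1 feedback inhibitors past 1.5-fold. The other values kept their size within the scanner error or their count within 1.5 times, in 188 comparisons of main values and 220 of single genes or probes. Many of these comparisons could not differ, so the counts do not measure stability. They include the deposited value table, and the detection settings leave a gene as it was where all its probes were measured. Gpc3 lay between 0.59 and 0.64 and Ccnd1 between 0.61 and 0.67. Fgf2 was not well above background, so low signal leaves it without a fold. No paired analysis was possible because each group has 1 array.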

Other observations

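The probe annotated to Fgf23, a phosphate hormone known from bone, read 30853 intensity units in TG+STZ and 31790 in WT+STZ, at -0.12 ± 0.20. Probe sequences were not used here, so which transcript gave this signal was not tested.

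Apart from Fgf10, 3 of the 319 probes spotted several times were at least 2-fold apart. Ctxn3 read 528 units in TG+STZ and 39.3 in WT+STZ (3.67 ± 0.22, SD over 10 spots 0.10). Hsd11b1, which regenerates active glucocorticoid, read 49368 units in TG+STZ and 22519 in WT+STZ (1.05 ± 0.20, SD over 9 spots 0.01). Ccl2, a monocyte chemokine, read 351 units in TG+STZ and 722 in WT+STZ (-1.12 ± 0.20, SD over 10 spots 0.05).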
